A study of Arabidopsis thaliana with 4 samples.

Results

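The regions described here are 450 stretches of the Arabidopsis thaliana genome at which the H3K4me3 signal of roots was lower under osmotic stress. Signals were scaled to the fragments of each library, so they give shares of a library and not amounts of H3K4me3. Peaks of 4 libraries that shared a base were merged on chromosomes 1 to 5, and 11915 of the 16070 merged regions held a peak in every library and lay outside a copy of organelle DNA on chromosome 2. The 450 were selected on the stress and control values themselves. The mean log2 signal had to be at least 1.5-fold lower under stress, and both stress values had to lie under both control values. Every stress against control value of these regions is therefore a description and carries no test.

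The libraries came from roots of Col-0 seedlings grown for 10 days on 1/2MS medium with 250 mM sorbitol (stress, 2 libraries) or on 1/2MS medium alone (control, 2 libraries). Sorbitol is a sugar alcohol that lowers the water potential of the medium. No mutant or transgene was involved, the labels give the tissue as root and the study's methods as root tips, and the study calls the replicates biological. The labels do not say which plants each came from, and nothing ties a stress replicate to a control replicate.

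H3K4me3 is trimethylation of lysine 4 of histone H3, deposited by SET-domain methyltransferases of the Trithorax group around the first nucleosomes of transcribed genes. CUT&Tag measures it by tethering a transposase to an antibody bound on the mark, so that fragments are released around marked nucleosomes. The mark accompanies transcription by RNA polymerase II, also at genes of microRNAs. In roots it covers genes of all cell types, and in bulk tissue fewer cells carrying a mark and less of the mark per cell cannot be told apart.

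Genes of microRNAs were among those found at the lowered regions. A microRNA is a short RNA, cut from a hairpin precursor, that guides cleavage or silencing of matching transcripts. Of the 60 shared regions that held the 5′ end of an annotated microRNA hairpin, 13 (21.7%) were lowered, against 3.78% of all shared regions. This set was singled out after its values were seen. Among the 13 were MIR160a, MIR160b, MIR164b, MIR166a, MIR169a, MIR172d, MIR319a, MIR390a and MIR396a, whose families guide silencing of developmental transcription factors. The mature strands of these microRNAs are shown because each family names the transcripts that it can pair with. They were read from the RefSeq genome TAIR10.1 at the annotated mature positions, 5′ to 3′, and capitals mark the seed, bases 2 to 8. MIR160a and MIR160b give the same mature sequence, and no other seed was shared.
miR160a-5p, chr2:16340282-16340302, plus strand: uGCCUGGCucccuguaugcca
miR160b, chr4:9888986-9889006, plus strand: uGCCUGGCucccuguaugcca
miR164b-5p, chr5:287586-287606, plus strand: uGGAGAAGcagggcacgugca
miR166a-3p, chr2:19176241-19176261, plus strand: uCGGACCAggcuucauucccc
miR169a-5p, chr3:4359182-4359202, minus strand: cAGCCAAGgaugacuugccga
miR172d-3p, chr3:20587991-20588011, plus strand: aGAAUCUUgaugaugcugcag
miR319a, chr4:12353109-12353129, plus strand: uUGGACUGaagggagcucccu
miR390a-5p, chr2:16061971-16061991, plus strand: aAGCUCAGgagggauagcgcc
miR396a-5p, chr2:4142443-4142463, minus strand: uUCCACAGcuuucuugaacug

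Signals are given throughout as the highest pileup of a region, that is the number of overlapping fragments, per 1000000 fragments of the library (FPM), and changes as log2 stress minus control. The MIR172d region, whose product silences AP2-type factors, measured 6.38 and 4.94 FPM in the stress libraries, against 11.4 and 11.3 in the control libraries, a log2 change of -1.01. The region of MIR160a, which silences the auxin response factors ARF10, ARF16 and ARF17, measured 14.7 and 15.01 under stress, against 24.97 and 25.5 in control (log2 change -0.76). The second locus of that family, MIR160b, measured 9.08 and 7.66 under stress, against 12.5 and 13.8 in control (-0.66). In all 3 the groups were apart, as the selection required, and the pairs of replicates lay closer together than the groups.

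MIR166a silences the HD-ZIP III homeodomain factors. Its region measured 10.2 and 9.33 under stress, against 16.4 and 15.9 in control (-0.73). MIR390a, whose product triggers small RNAs against ETT and its relatives, measured 5.26 and 5.13 under stress, against 9.21 and 8.91 in control (-0.80). MIR164b, which silences NAC factors of organ boundaries and lateral roots, measured 7.95 and 7.89 under stress, against 13.6 and 14.4 in control (-0.82). In these 3 regions, too, the groups were apart, as the selection required.

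MIR169a, which silences the NF-YA subunits of a trimeric transcription factor, changed by -0.84 on the log2 scale. MIR319a and MIR396a, regulators of TCP factors and growth-regulating factors, changed by -0.61 each. The other 4 were MIR837, MIR5642a, MIR5651 and MIR8176. The regions of MIR169a, MIR837, MIR5642a and MIR8176 also held a protein-coding start (AT3G13404, NRT1.9, AT3G41762 and AT4G22320), and those of MIR164b, MIR390a and MIR5651 lay within 1000 bp of one (AT5G01750, AT2G38330 and RDUF1), so that the paired genes cannot be told apart. The MIR5642a region was the faintest of all, with 0.814 and 0.778 FPM under stress, against 1.33 and 1.56 in control. For 6 of the 13 regions (those of MIR160a, MIR160b, MIR166a, MIR172d, MIR319a and MIR396a) no protein-coding start lay within 1000 bp. The median log2 change over all 60 microRNA regions was -0.15, with 43 lower under stress, against a median of 0.01 over all shared regions. Of the 9647 shared regions that held a protein-coding start, 4727 were lower under stress. When the same rule was applied to fold enrichment, the pileup of a peak divided by that expected from the 10000 bp around it, 2 of the 60 regions passed, against 0.596% of all shared regions.

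Targets of these microRNAs, taken from a list of gene names, moved in both directions. The target list was also drawn up after the values were seen, and it left out the growth-regulating factors of miR396. Of the 5 HD-ZIP III genes, all of which had a shared region at the start, ATHB-15 and HB-8, regulators of vascular differentiation, were lowered. ATHB-15 measured 5.20 and 4.94 under stress, against 10.3 and 10.8 in control (-1.06). HB-8, a procambium gene, measured 3.26 and 3.42 under stress, against 5.44 and 7.50 in control (-0.94). PHB had a log2 change of -0.35, REV of -0.14 and PHV of 0.17, with none of these 3 among the lowered regions. Of 4 NF-YA genes with a region, NF-YA10 was lowered (3.005 and 2.72 under stress, against 5.22 and 5.002 in control, -0.84), and NF-YA2 stopped just outside the threshold at -0.58. ETT, an auxin response factor of organ polarity, was lowered by -0.64 on the log2 scale, while its relatives ARF2 and ARF4 had changes of -0.34 and -0.05. Among the targets of miR160 the changes were -0.31 for ARF10, 0.18 for ARF16 and 0.43 for ARF17, and no gene of the 4 AP2-type targets with a region was lowered. The NAC targets of miR164 and the TCP targets of miR319 had no shared region at the start.

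Regions with tRNA genes, which RNA polymerase III transcribes, and with genes of the splicing machinery were also frequent. Of 158 shared regions with a tRNA gene start, 18 (11.4%) were lowered, and 130 of the 158 were lower under stress (median log2 change -0.24). The largest change was at a tRNA-Val gene beside TIN1, a gene induced when protein folding in the endoplasmic reticulum is disturbed, with 7.51 and 6.42 FPM under stress, against 14.4 and 15.2 in control (-1.09). In 14 of the 18 a protein-coding start lay in the same region, among them NRP1, UBQ5, RS27A and PRR7, so the tRNA gene and its neighbour cannot be told apart. Of 14 regions with a spliceosomal snRNA gene start, 4 (28.6%) were lowered, at genes of the U1, U2, U5 and U12 RNAs, and 13 of the 14 were lower under stress (median -0.30). All 4 also held a protein-coding start. In fold enrichment 10 of the 158 tRNA regions and 1 of the 14 snRNA regions passed the rule. The tRNA and snRNA sets were likewise singled out after their values were seen. Regions with a snoRNA start were lowered in 6 of 99 cases (6.06%), and 90 of the 99 were lower under stress (median -0.26). Regions with a long non-coding RNA start were lowered in 26 of 542 cases (4.797%), with 281 lower under stress (median -0.009). Of 9647 regions with a protein-coding start, 4727 were lower under stress (median 0.007).

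**Figure D1:**
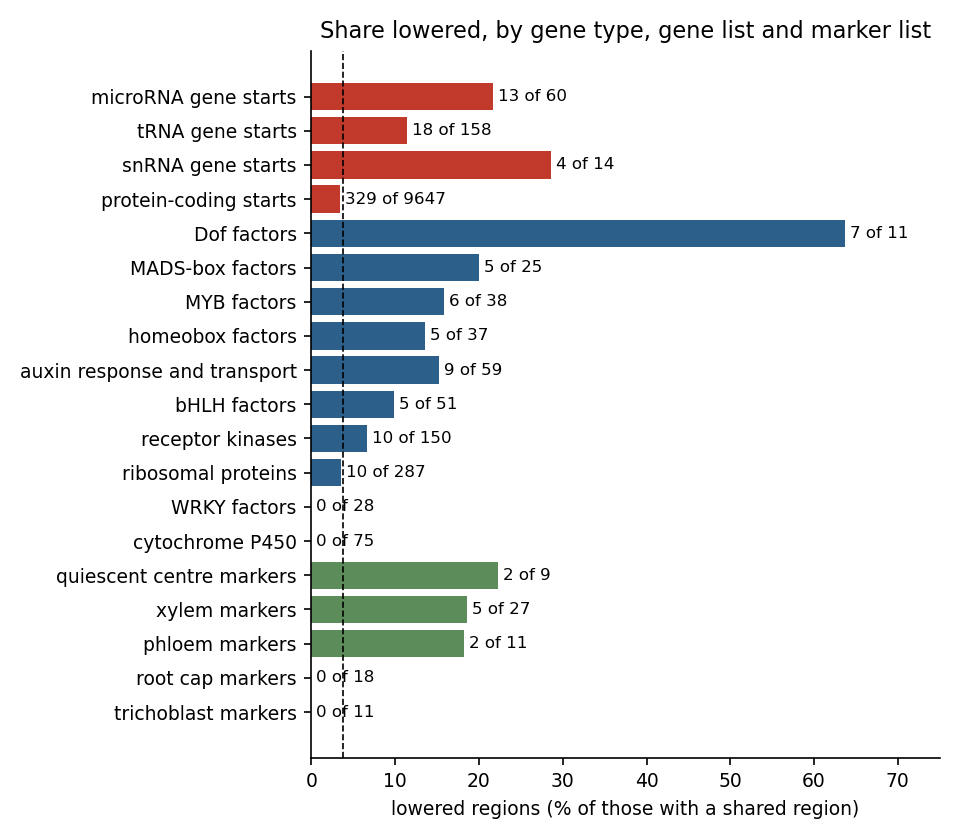
Bars give the share (%) of regions or genes with a shared region that were lowered under stress, for gene types (red), gene lists (blue) and root cell type markers (green), with counts beside the bars and the share of all shared regions (3.78%) as a dashed line. Dof factors reached 7 of 11 and microRNA starts 13 of 60, while WRKY factors, cytochrome P450 genes, root cap markers and trichoblast markers stayed at 0. The bars are a selection of the types and lists counted. Among the gene lists left out are class III peroxidases (3 of 12) and glutathione S-transferases (0 of 25). The marker groups left out include endodermis (1 of 7), pericycle (1 of 6), cortex (1 of 12) and atrichoblasts (0 of 7).

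Protein-coding genes made up most of the set. A protein-coding start lay within 1000 bp of 413 of the 450 regions (91.8%) and inside 329 (73.1%), against 96.9% and 81.0% of all shared regions. Of the lowered regions, 37 (8.22%) had no protein-coding start within that distance, against 3.06% of all. Taking for each gene the shared region nearest to its start, within 1000 bp, 511 of 14854 protein-coding genes (3.44%) stood at a lowered region. The counts of gene families below are set beside that share. By direction alone, the region was lower under stress for 7297 of the 14854 genes.

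Dof factors had the largest share of the families counted here. These are plant transcription factors with a single zinc finger, several of which act in vascular cells and in seeds. Genes were matched by the term Dof-type in the product name, so any Dof gene named otherwise was not counted. Of the 25 genes matched 11 had a shared region at the start, and 7 of these were lowered. All 11 were lower under stress, and their median change was -0.84. The family was chosen because its values had been seen, and no test was made of it. AT2G28810, chr2:12363280-12365575, had the largest change of all 450 regions, with 5.38 and 4.32 FPM under stress, against 13.9 and 13.3 in control (-1.49; mean 4.85 ± 0.754 under stress and 13.6 ± 0.412 in control, SD, n = 2 each). AT1G28310 measured 10.3 and 10.5 under stress, against 20.6 and 22.7 in control (-1.05). DAG1, a factor of seed germination in the vasculature, measured 12.1 and 11.2 under stress, against 23.3 and 23.3 in control (-0.9996).

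AT4G24060 had a log2 change of -0.97, DAG2 of -0.88, AT2G28510 of -0.84 and OBP2, a factor of phloem and glucosinolate regulation, of -0.78. The other 4 were AT1G64620 (-0.41), AT4G00940 (-0.30), AT2G34140 (-0.26) and AT1G29160 (-0.003). Of the 7 lowered genes 6 had mean control signals of 13.6 to 23.3 FPM, above the median of 12.3 over all shared regions, and OBP2 had 7.81, within the lowest quintile of control signal. In fold enrichment none of the 7 fell 1.5-fold. Their log2 changes on that measure lay between -0.45 and -0.07.

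Of 37 homeobox genes with a region 5 (13.5%) were lowered, namely ATHB-15, HB24, HB-8, HB23 and HB-1, with a family median of -0.18. HB24 measured 4.95 and 4.08 under stress, against 8.54 and 8.91 in control (-0.96). Of 38 MYB genes 6 (15.8%) were lowered, with a family median of -0.23. MYB55, a factor of the lignin pathway, measured 8.39 and 7.16 under stress, against 13.2 and 14.5 in control (-0.84). MYB68, a root pericycle gene, had a change of -0.74 and MYB88, known from stomatal divisions, of -0.69. MYB4, MYB34 and MYB63 lay between -0.68 and -0.65. By fold enrichment no homeobox or MYB gene passed the rule.

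Of 25 MADS-box genes 5 were lowered. AGL12, a root gene of the meristem and vascular tissue, measured 3.88 and 2.72 under stress, against 5.105 and 6.72 in control (-0.85). AGL77 (-0.75) and AT2G41440 (-0.72) came next. The count for this family was 1 of 11 when regions had to overlap the gene, and the region of AT2G41440 is that of ERD15, so that a MADS-box gene and its neighbour cannot be told apart. Of 51 bHLH genes 5 (9.80%) were lowered, led by AT2G43140 (-1.05), AT3G20640 (-1.0001) and AT1G27660 (-0.94). The median change of the 51 was 0.04, with 24 lower under stress. Single members were found among NAC genes (NAC011, -0.84) and in the list of ERF and AP2 genes (AT5G42700, -0.60). The product name of AT5G42700 reads AP2/B3-like, and whether it belongs to the ERF and AP2 family was not checked. Of 28 WRKY genes, a family of defence and stress regulators, none was lowered, with a median change of 0.08.

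Zinc finger proteins of all kinds, a list that contains the Dof factors, gave 18 of 303 (5.94%). Apart from the Dof genes its largest changes were at AT1G28400, a GATA factor (-0.94), and MIF1, a small zinc finger protein of hormone responses (-0.93).

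Auxin genes were the hormone list with the most lowered genes, 9 of 59 (15.3%), at a list median of -0.12, and none of the 9 passed the same rule in fold enrichment. The SAUR gene AT1G72430 measured 8.76 and 7.82 under stress, against 14.98 and 15.6 in control (-0.89). SAUR36 measured 5.95 and 5.52 under stress, against 10.2 and 10.2 in control (-0.83). PIN7, an auxin efflux carrier of the stele and columella, measured 9.45 and 9.68 under stress, against 15.3 and 18.8 in control (-0.83), and its fold enrichment did not change (0.00 on the log2 scale). The response factors ARF18 and ARF8 and the repressors IAA28 and IAA16 had changes of -0.75, -0.63, -0.63 and -0.59. Of the regions just inside the threshold, IAA16 was one, together with the receptor kinase genes AT1G53440 and AT1G56120, all 3 at -0.59. Just outside lay NF-YA2, YAO and TOC132, all at -0.58.

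Of 8 gibberellin and brassinosteroid genes with a region, BR6OX1 and BR6OX2, which encode the oxidases of the last steps of brassinosteroid synthesis, were lowered. BR6OX1 measured 4.19 and 3.38 under stress, against 6.21 and 8.29 in control (-0.93), and BR6OX2 measured 5.57 and 4.47 under stress, against 9.10 and 8.44 in control (-0.81). Fold enrichment changed by 0.11 and 0.00 at these genes. Of 22 genes of abscisic acid and dehydration in the list none was lowered, with a median of 0.05. One receptor gene of abscisic acid outside that list, PYL6, lay 129 bp from a lowered region, with 8.70 and 8.28 FPM under stress, against 20.6 and 19.9 in control (-1.25), and its fold enrichment changed by 0.03. ERD15, a dehydration-induced gene that dampens abscisic acid responses, shared its region with AT2G41440 and had the highest control signal of the set, 45.6 and 42.3 under stress, against 69.6 and 74.9 in control (-0.72).

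Vascular and stem cell genes were named from the study's table of root cell type markers. Of 328 such markers 114 had a shared region at the start, and of these 13 (11.4%) were lowered, against 3.44% of all protein-coding genes. By direction alone, 56 of the 114 were lower under stress, beside 7297 of 14854 protein-coding genes. For xylem the count was 5 of 27 (HB-8, SHR, AT1G29950, AT3G61100 and SBTI1.1), for phloem 2 of 11 (OBP2 and CVP2), for the quiescent centre 2 of 9 (RGF8 and AT1G75580) and for the pericycle 1 of 6 (AT3G27030). For cortex it was 1 of 12 (AT1G62500) and for endodermis 1 of 7 (OCT3). For trichoblasts it was 0 of 11, for atrichoblasts 0 of 7 and for columella and lateral root cap 0 of 18, with medians of 0.11, 0.24 and 0.22. The other medians were -0.15 for xylem (18 of 27 lower under stress), 0.04 for phloem (5 of 11 lower), -0.30 for the quiescent centre (6 of 9), 0.02 for the pericycle (3 of 6), 0.05 for cortex (4 of 12) and -0.17 for endodermis (5 of 7). For regions that overlap the gene the median was -0.10 for the quiescent centre and -0.33 for the pericycle. A group of stele and procambium markers, added after the values were seen, gave 1 of 5, PDLP7, and all 5 were lower under stress (median -0.43). A change in the share of these cells in the sampled tissue was not tested, and no difference between groups was tested.

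SHR, the mobile factor that leaves the stele to pattern the endodermis, measured 10.9 and 9.49 under stress, against 19.1 and 17.8 in control (-0.86). RGF8, a peptide of the root meristem growth factor family, measured 4.69 and 4.39 under stress, against 8.77 and 9.54 in control (-1.01). PDLP7, a protein of plasmodesmata, measured 2.44 and 2.49 under stress, against 5.77 and 4.53 in control (-1.05). CVP2, a phosphatase of vein continuity and protophloem, measured 5.38 and 5.99 under stress, against 10.3 and 8.60 in control (-0.73). In all 4 both stress values lay under both control values, as the selection required. BAM3, a receptor kinase of protophloem outside the marker table, measured 5.07 and 4.63 under stress, against 10.1 and 8.60 in control (-0.94).

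The promoters of 3 lowered transcription factor genes are shown because these genes carry the Dof, homeobox and vascular results. Each run holds the 250 bp before the annotated start, 5′ to 3′ on the coding strand, from TAIR10.1. Capitals mark matches on either strand to 4 of the motifs counted further on. The first is site II, spelled TGGGCC, and the next is the TATA element, spelled TATAAA. The others are a GA repeat, spelled GAGAGAGA, and the RY element of seed genes, spelled CATGCA.
AT2G28810, chr2:12363176-12363425, plus strand: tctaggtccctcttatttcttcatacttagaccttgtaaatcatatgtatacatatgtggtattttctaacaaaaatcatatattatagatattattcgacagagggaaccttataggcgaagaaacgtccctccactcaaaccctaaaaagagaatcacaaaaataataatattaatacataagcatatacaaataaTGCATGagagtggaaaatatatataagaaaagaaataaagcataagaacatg
HB-8, chr4:15868651-15868900, minus strand: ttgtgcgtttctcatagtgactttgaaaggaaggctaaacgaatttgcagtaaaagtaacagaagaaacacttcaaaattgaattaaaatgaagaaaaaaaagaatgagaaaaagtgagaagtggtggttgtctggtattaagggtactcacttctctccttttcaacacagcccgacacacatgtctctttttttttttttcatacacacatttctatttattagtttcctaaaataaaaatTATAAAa
SHR, chr4:17691437-17691686, plus strand: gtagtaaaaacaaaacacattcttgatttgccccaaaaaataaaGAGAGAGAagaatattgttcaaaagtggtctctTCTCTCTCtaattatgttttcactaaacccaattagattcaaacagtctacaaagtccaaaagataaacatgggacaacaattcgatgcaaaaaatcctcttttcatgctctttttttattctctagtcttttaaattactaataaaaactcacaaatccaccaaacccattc

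Each of these promoters had 28.8% to 30.8% GC, and none held a site II match in these 250 bp. In the 500 bp before the start, site II was found at 62 of the 412 genes of lowered regions (15.05%), against 22.8% of all genes at shared regions. It is the motif of many ribosomal and cell cycle genes. RY was found at 19.7% against 14.7%, the copper response core GTAC at 61.9% against 57.1%, TATA at 71.4% against 67.0%, P1BS (GNATATNC) at 13.3% against 10.3% and the GA repeat at 10.9% against 7.92%. The motifs of drought and cold signalling differed less, with the G-box (CACGTG) at 12.4% against 10.6%, ABRE (ACGTGGC or ACGTGTC) at 11.7% against 10.1% and the DRE core (CCGAC) at 21.6% against 23.3%. The G-box and ABRE share letters. The W-box (TTGACC or TTGACT) was at 43.2% against 44.8%, the evening element (AAAATATCT) at 6.80% against 4.55% and the telo-box (AAACCCTA) at 7.77% against 6.29%. The GCC-box (GCCGCC), the auxin element (TGTCTC) and the heat element (GAANNTTC) differed by 0.73, 0.31 and 1.84 percentage points.

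The 12 regions with the largest change are a mixed set by function. After AT2G28810 came Prx37, a class III peroxidase of the vascular cell wall, with 3.51 and 2.72 under stress, against 6.88 and 9.07 in control (-1.35). AT3G30580, an uncharacterized gene, had a change of -1.28. HOL1, a methyltransferase that makes methyl halides, measured 6.95 and 5.87 under stress, against 14.2 and 16.6 in control (-1.26). ABCC13, a transporter gene that lies just beyond the organelle copy on chromosome 2, had a change of -1.26. PYL6 came next, then the fucosyltransferase gene AT5G28960 (-1.23) and AT4G11950 (-1.19). FAF3, a gene of a family that acts on shoot meristem size, measured 3.44 and 3.31 under stress, against 7.66 and 7.66 in control (-1.18), and a further lowered region lay 3017 bp from its start (-0.73). AT1G33170 (-1.16), CCH (-1.15) and the glutaredoxin gene AT5G39865 (-1.15) closed the set.

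**Figure D2:**
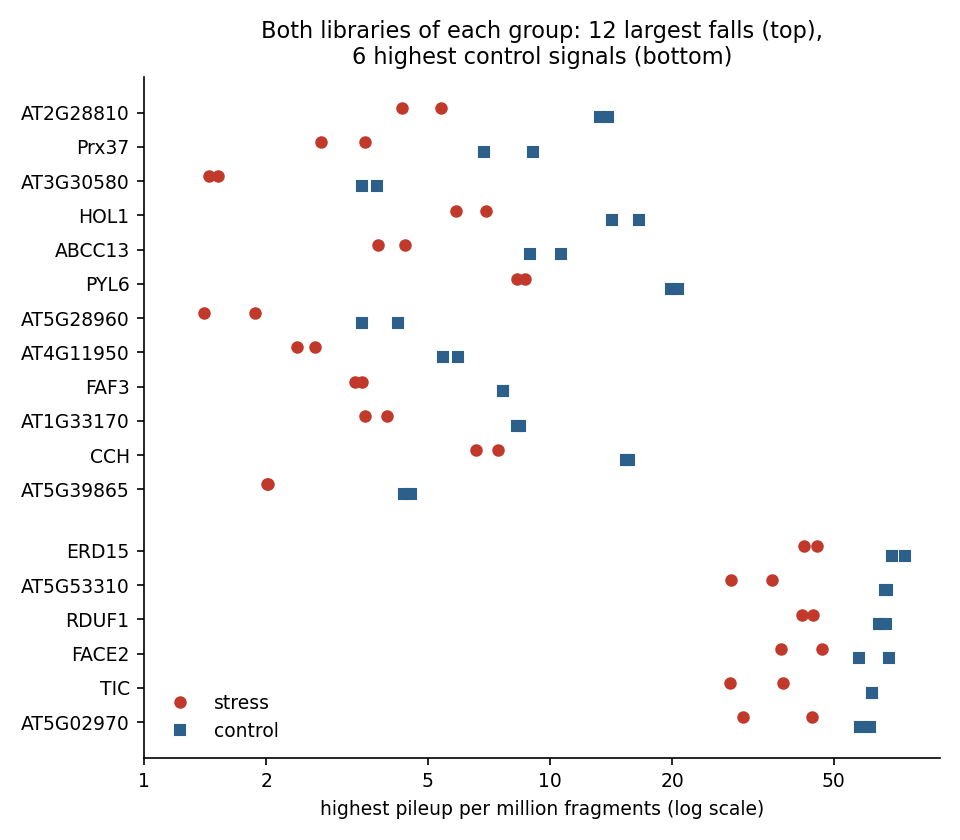
Horizontal positions give the highest pileup in FPM (log axis) in each stress library (red circles) and each control library (blue squares) for the 12 regions with the largest falls and the 6 with the highest control signal, named by the nearest protein-coding gene. The groups are apart in every row, as the selection required, and the gap is widest at AT2G28810, with 5.38 and 4.32 under stress against 13.9 and 13.3 in control.

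The 6 regions with the highest control signal stood at ERD15, at AT5G53310 with its neighbour UBC10, at RDUF1, FACE2 and TIC, and at AT5G02970. The AT5G53310 region fell most, with 35.3 and 27.9 under stress, against 67.8 and 66.9 in control (-1.10). TIC, a nuclear regulator of the circadian clock, measured 37.5 and 27.8 under stress, against 62.3 and 62.1 in control (-0.94). In all 6 regions stress replicate 1 was above stress replicate 2, an order that most shared regions had too. The median log2 difference, replicate 1 minus replicate 2, was 0.19 in the lowered regions and 0.10 over all shared regions.

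A few genes of metal and nutrient transport were lowered. CCH, a copper chaperone, measured 7.45 and 6.57 under stress, against 15.4 and 15.6 in control (-1.15), and HMA4, the pump that loads zinc into the xylem, measured 5.20 and 4.78 under stress, against 8.54 and 8.29 in control (-0.76). These were 2 of 21 copper and zinc genes, whose median change was 0.02. Of 18 iron genes YSL2 (-0.93) and YSL3 (-0.61), carriers of metals bound to nicotianamine, were lowered, with a list median of -0.12. NRT1.1, the nitrate transporter and sensor, measured 3.38 and 3.34 under stress, against 6.21 and 5.002 in control (-0.73), and was 1 of 17 nitrate, phosphate, sulfate and ammonium transport genes. The median change of those 17 genes was 0.18, and only 5 of them were lower under stress. PHO1, the exporter of phosphate to the xylem, was not matched by that list. It measured 2.75 and 2.80 under stress, against 4.99 and 6.41 in control (-1.03). Of 145 other carriers 7 (4.83%) were lowered, led by MEE15 (-0.98), AT1G71870 (-0.81) and AT2G38330 (-0.80). The median change of the 145 was 0.09, and 56 of them were lower under stress. Of 16 aquaporin genes none was lowered.

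Cell wall genes gave 8 of 131 (6.11%). XTH9, a xyloglucan remodelling enzyme, measured 9.51 and 6.38 under stress, against 16.3 and 14.5 in control (-0.98). SAH7 and the arabinogalactan protein AGP10 had changes of -0.88 and -0.76. Of 12 class III peroxidase genes Prx37, AT3G32980 (-0.75) and AT3G21770 (-0.70) were lowered, the last in a region shared with UGT71B6. Of 31 lipid transfer and germin-like genes 6 (19.4%) were lowered, led by XYP2 (-0.995), a xylogen of xylem differentiation, DIR1 (-0.74) and ACD11 (-0.73). This count was 3 of 18 for regions that overlap the gene. The median change of the 31 genes was 0.03, with 15 lower under stress. PAL1 (-0.70) and CAD5 (-0.66) of the phenylpropanoid pathway were lowered among 23 genes. Cytochrome P450 genes (0 of 75) and glutathione S-transferases (0 of 25) had no lowered member, and the UDP-glycosyltransferases had 2 of 68 (AT4G14090 at -0.76 and UGT71B6 at -0.70).

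Receptor kinases gave 10 of 150 (6.67%), led by AT2G25790 (-0.99), BAM3 and AT4G37250 (-0.89). The list was matched by product names and left out AT1G53440 and AT1G56120, named above. FER, the receptor of RALF peptides that senses cell wall integrity, measured 33.1 and 31.3 under stress, against 49.2 and 47.7 in control (-0.59). Immune receptor genes gave 3 of 71 (4.23%), AT1G58410 (-0.97), AT5G35450 (-0.68) and AT5G46510 (-0.65). The list of calcium sensors gave 3 of 95 (3.16%), PSL4 (-0.80), AT5G39670 (-0.64) and AT5G62570 (-0.62). Whether each gene of that list encodes a calcium sensor was not checked. Of 16 clock genes PRR7 (-0.79) and PCL1, the LUX factor (-0.72), were lowered, and TIC was not in that list. PRR7 measured 17.5 and 14.3 under stress, against 26.6 and 28.3 in control.

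Ribosomal protein genes were close to the share of all genes, with 10 of 287 (3.48%) lowered, led by AT3G02080 (-0.78), AT2G40010 (-0.77) and AT5G02960 (-0.71), although 192 of the 287 were lower under stress and their median was -0.12. Cell division genes gave 5 of 96 (5.21%), led by KINESIN-12B (-0.87), a motor of the phragmoplast, CYCB2;3 (-0.69) and the replicative polymerase gene ICU2 (-0.66). Histone genes gave 3 of 38, or 7.89% (HTA8 at -0.75, HTB11 at -0.63 and AT4G40040 at -0.60). Heat shock and DnaJ proteins gave 7 of 132 (5.30%), led by AT1G77020 (-0.84), HSFB4 (-0.81), a factor of ground tissue divisions, and AT4G16660 (-0.78). Lipases gave 4 of 70, or 5.71% (AT5G06610 at -0.83, AT3G58270 at -0.68 and PLDP2 at -0.66 among them). Photosystem genes gave 2 of 31, or 6.45% (ELIP1 at -0.69 and PSI-P at -0.63), and glucosinolate genes 1 of 12 (8.33%), MYB34 (-0.66). Casparian strip and suberin genes gave 0 of 6. Of the 35 gene lists 29 had at least 1 lowered gene.

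The size of the change varied little within the set. The median log2 change was -0.70, 182 of the 450 regions fell by less than 1.6-fold and 34 by 2-fold or more. The median signal was 7.48 and 6.46 FPM in the stress libraries, against 11.7 and 12.2 in the control libraries, while over all shared regions it was 13.2 and 12.4 under stress, against 12.2 and 12.5 in control. The median absolute log2 difference between the 2 stress replicates was 0.20 in the lowered regions and 0.13 over all shared regions, and between the control replicates 0.14 and 0.13. Both stress values lay under both control values in 3464 of the 11915 shared regions (29.1%), so the lack of overlap alone is common, and 451 regions passed the 1.5-fold limit. The region left out for overlap was at RALFL5. The mirrored rule for higher signal under stress found 212 regions.

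The control signal is itself a term of the change, so a split by it is a description that leans to lower changes where control is high. Lowered regions made up 5.62% of the quintile of shared regions with the lowest control signal, 3.02%, 2.31% and 2.39% of the next 3 quintiles, and 5.54% of the highest quintile. The ends differed from each other. In the highest quintile the median change of all shared regions was itself -0.18 and only 2 regions were raised 1.5-fold, while in the lowest quintile the median was 0.11, and 129 regions were raised beside the 134 lowered ones. The lowest quintile rests on a median pileup of 43 fragments in control replicate 2, the shallowest library. With a pileup of at least 50 fragments asked of every library, 342 of 10071 regions (3.40%) were lowered, and the counts were 12 of 50 for microRNA starts, 16 of 148 for tRNA starts, 4 of 13 for snRNA starts, 7 of 9 for Dof factors, 6 of 28 for MYB genes, 3 of 27 for homeobox genes, 9 of 42 for auxin genes and 4 of 20 for xylem markers.

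**Figure D3:**
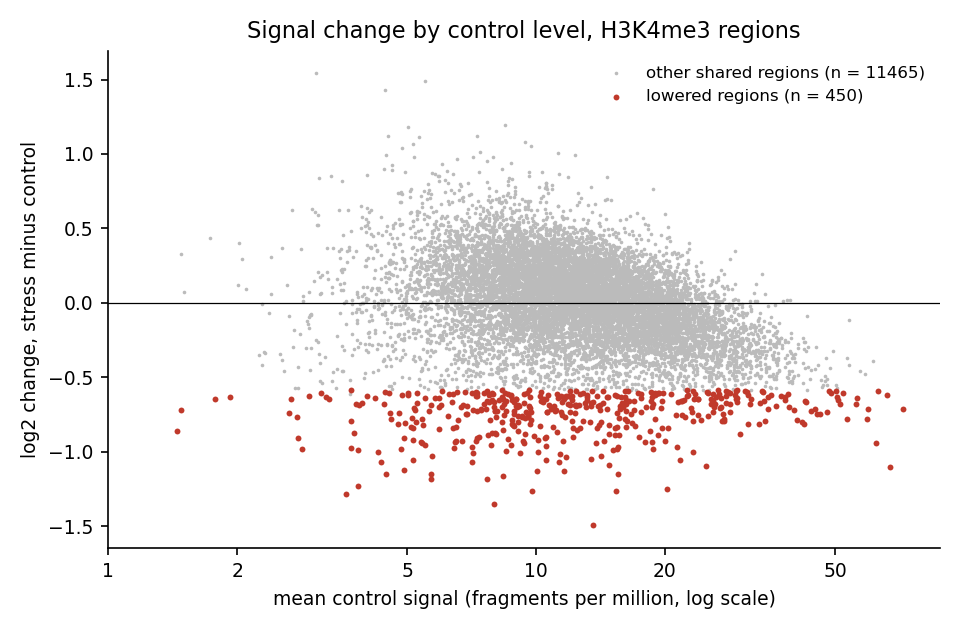
Each point is a shared region, with its mean control signal in FPM on a log axis and its log2 change, stress minus control; lowered regions are red (n = 450) and the others grey (n = 11465). The red points span the whole range of levels, and the grey cloud bends to a median of -0.18 in the highest quintile of control signal.

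The libraries differed in depth in step with the treatment, with 15974955 and 25714827 fragments under stress and 9011630 and 6396842 in control, so depth and stress cannot be told apart. Over all shared regions the peaks were longer in both stress libraries in 75.9% of cases, with a median log2 length change of 0.32. In the lowered regions the median was 0.09, the peaks of 162 (36.0%) were longer in both stress libraries, and those of 72 (16.0%) were shorter in both, against 2.07% of all shared regions. Signal and length come from the same fragments, and the part of depth in either was not tested. The fall also depended on the background used. The fold enrichment of the peak caller fell in 434 of the 450 regions, against 4982 of all 11915 shared regions (41.8%). Its median log2 change was only -0.33 (0.05 over all shared regions), and 48 regions (10.7%) fell 1.5-fold on it with the groups apart. The local background in FPM, recovered from pileup and fold enrichment, fell as well, by a median log2 change of -0.35 (-0.003 over all shared regions). Both of its stress values lay under both control values in 390 of the 450, against 3349 of all 11915 shared regions (28.1%). That background covers 10000 bp that include the region itself.

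**Figure D4:**
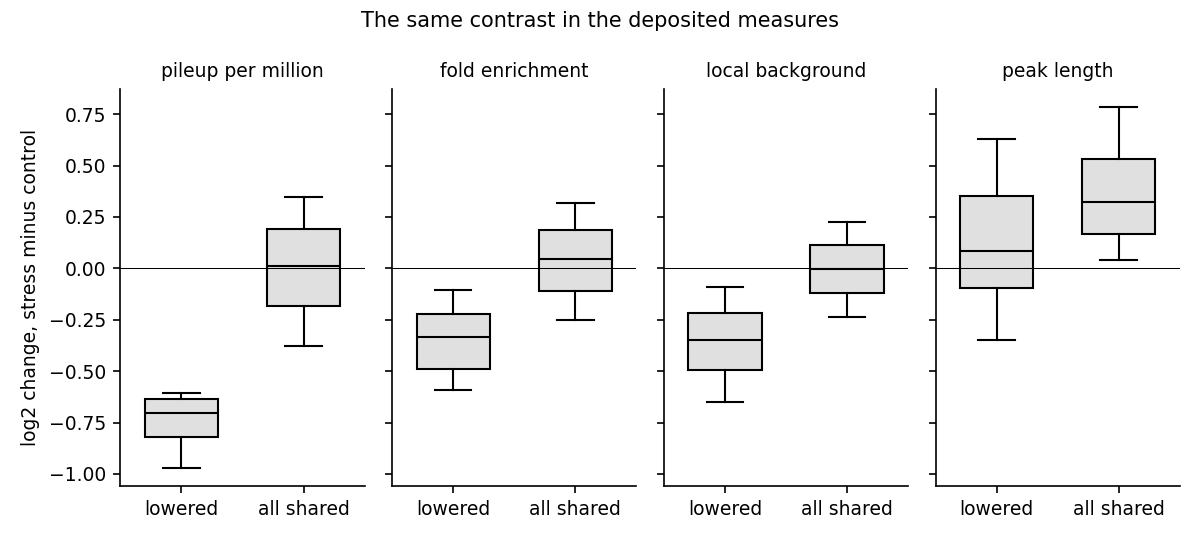
Boxes show quartiles and whiskers the 10th and 90th percentiles of the log2 change, stress minus control, of pileup in FPM, fold enrichment, local background and summed peak length, in the 450 lowered regions (left in each panel) and in all 11915 shared regions (right). The median of the lowered regions is -0.70 in pileup, -0.33 in fold enrichment, -0.35 in local background and 0.09 in peak length.

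The 48 regions that fell on both measures were shorter, with a median length of 918 bp against 1394 bp for the other lowered regions. They included those of MIR164b and MIR837, CCH, BAM3, DRP5A and KINESIN-12B, the last pair acting in cell division, and 4 with a tRNA start. The largest change in fold enrichment was at AT5G13230, a region that also holds a snoRNA start (-1.11; pileup change -0.82). By fold enrichment alone 71 of the 11915 shared regions (0.596%) passed the rule. Among these were 10 of the 158 tRNA regions and 2 of the 60 microRNA regions, but none of the Dof, homeobox, MYB, auxin or xylem marker genes. The counts for those groups thus hold for the pileup in FPM only.

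The pairs of libraries were also set against each other, as a description of the 4 values that the selection used. When stress replicate 1 and control replicate 1 chose the regions with a 1.5-fold lower signal, 276 were found, and in the other pair 218 of them (79.0%) were again lower by 1.5-fold and all 276 were lower, against 7.09% and 56.0% of all shared regions. When stress replicate 2 and control replicate 2 chose, 845 were found, of which 218 (25.8%) were again lower by 1.5-fold in the first pair, against 2.32% of all, and 805 were lower. The crossed pairs gave 258 of 371 (69.5%) when stress replicate 1 and control replicate 2 chose, and 258 of 724 (35.6%) when stress replicate 2 and control replicate 1 chose. In each pair of readings the regions counted, 218 or 258, are the same, and the shares differ by the number that each pair chose. A choice with stress replicate 2 found more regions than a choice with stress replicate 1. Leaving out stress replicate 1 or stress replicate 2 moved the median change of the lowered regions to -0.81 or -0.63.

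**Figure D5:**
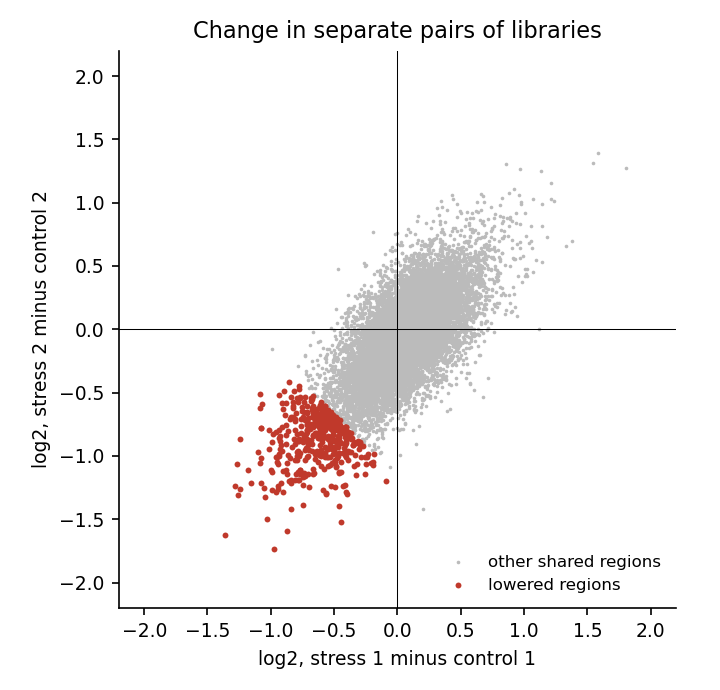
Each point is a shared region, with the log2 difference of stress replicate 1 and control replicate 1 on the horizontal axis and that of stress replicate 2 and control replicate 2 on the vertical axis; lowered regions are red and the others grey. The red points lie below 0 on both axes, as the selection required, and further down on the vertical one.

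In position the lowered regions were spread over the 5 chromosomes, with 115, 69, 96, 72 and 98 regions on chromosomes 1 to 5. Of the 450, 60 (13.3%) lay next to another lowered region among the shared regions, against 7.18% of the other regions, and there were 27 runs of 2 and 2 runs of 3. The first run of 3 spans 21.6 kb of chromosome 1, chr1:27034511-27056146, at AT1G71870, a gene of the MATE carriers, and SUC1, a sucrose carrier, with changes of -0.81, -0.68 and -0.89. The other spans 539 kb of chromosome 3, chr3:13527424-14066197, from the peroxidase gene AT3G32980 to AT3G33528, with changes of -1.07, -0.75 and -0.72. Regions that lay next to a lowered one without belonging to the set had a median change of -0.002. The lowered regions had a median length of 1325 bp (1194 bp over all shared regions) and a median GC content of 36.7% (38.3%). The median distance of the summit was 155 bp downstream of the start (212 bp), and the genes had a median coding length of 1140 bp (1235 bp).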

How the data were processed

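H3K4me3 CUT&Tag was measured in 4 libraries of Arabidopsis roots, 2 under sorbitol and 2 in control. Per the submitters' processing notes, the authors used fastp (0.19.7), Bowtie2 (2.3.5.1), the TAIR10 genome and MACS2, and the headers of the deposited files name MACS 2.2.7.1 with a p cutoff of 1e-05, all duplicates kept, no input library and a genome size setting of 2700000000 bp, far above that of Arabidopsis. The deposited pileup (a signal, the fragments over the summit), fold enrichment (a ratio to the local background, with a pseudocount of 1), -log10 p and -log10 q, start, end, length and summit (other) were used as given, and peaks had been called for each library by itself. ChIPseeker and DiffBind are named in the notes, and no output of them was used here.

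Peaks were merged and regions selected as described, with pileup divided by the total fragments in the header. The fold enrichment, the median over shared regions, a -log10 q of 10, joining over 200 bp, a 2-fold limit, the mean pileup and each left-out library were tried as alternatives. Genes, starts and sequences came from the RefSeq annotation of TAIR10.1, whose chromosomes are long enough for every peak. Python (3.11.15), numpy (2.4.6), pandas (2.3.3), scipy (1.17.1) and matplotlib (3.10.9) were used. The selection code was run on simulated pileups with falls well above the 1.5-fold limit, which does not show how it performs at that limit.

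No test was made, since every contrast of stress and control had been used for the choice. The members and lists were chosen with earlier results of these data known. Genes named are the 12 largest falls, the 6 highest control signals, the 3 largest falls of each gene list, 3 regions on either side of the limit and runs of 3 or more, and microRNA, tRNA and snRNA regions, Dof factors, microRNA targets and other genes singled out in the text were added after their values were seen. The number of libraries, 2 a group, limits the precision.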

Additional observations from a re-analysis of the deposited data

How the results depend on the processing

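No paired analysis was possible because no result comes from a test and the labels tie no stress library to a control library. The number of lowered regions was 450. It was 71 with fold enrichment and 105 with the pseudocount of 1 removed from it, an alternative chosen after seeing the data, 34 at a 2-fold limit, and 300 to 743 with 1 library left out, the highest without stress replicate 1. The other scalings, joins and filters gave 342 to 573. All 450 were again among the 573 found when libraries were divided by their median. That scaling lowered every log2 change by the same amount, so none of the 450 could miss the 1.5-fold limit. The median log2 change of the 450 was -0.33 with fold enrichment and -0.37 without its pseudocount, and -0.81 to -0.63 with 1 library left out. The median length change was 0.03 to 0.15 with 1 library left out. The share at a protein-coding start was 87.8% within 500 bp and 88.2% at a 2-fold change. The share again lower by 1.5-fold in the libraries of the other pair was 69.5%, 35.6% and 25.8% for the other choosing pairs, against 79.0%. For motifs in the window from 250 bp before to 50 bp after the start, the differences turned to -0.39 percentage points for ABRE and -0.46 for the GCC-box, and the others kept their direction. The cause of these changes was not tested. The pileup of faint regions is limited by the depth of the control libraries.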
